A study of Rattus norvegicus with 6 samples.

Results

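Collagen chain genes were followed in the rat common carotid artery after a clot had been cleared. A gene was included when its symbol in the deposited count table was Col, a number, the letter a and a number, with nothing after, which gave 44 of 24005 symbols. They fell into 11 fibrillar chains, 6 basement membrane chains, 9 FACIT chains (collagens that bind to the surface of fibrils) and 18 other chains. Polyadenylated RNA was sequenced from 2 arteries collected 7 days after recanalization, 3 collected 1 day after it and 1 normal carotid artery, the control. In the day 7 and day 1 arteries, ferric chloride, which damages the endothelium by oxidation, had produced the thrombus. Flow had then been restored by sonodynamic therapy (ultrasound that activates a sensitizing agent) combined with a treatment called physical-explosion therapy. Injury and treatment were never applied separately, so their effects cannot be told apart. For strain, sex, age and the use of separate animals, nothing is given in the sources used here. The p-values therefore reflect only how far these samples differ from each other, which may be technical.

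Collagens are built from chains that wind into a triple helix in the endoplasmic reticulum and are secreted into the matrix. In an artery, fibrillar types I and III carry tensile load in the media and adventitia, and type IV networks form the sheet beneath the endothelium and the sleeve around each smooth muscle cell. Smooth muscle cells and adventitial fibroblasts are the main collagen-producing cells of the wall, and both are known to alter their matrix genes after injury.

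Library totals were 30078022 to 47240013 counts. All 44 genes passed the filter on low counts, as did 15860 genes in all. Levels are given as CPM, the count scaled to the normalised library total, and as FPKM, which also divides by gene length and is used wherever one gene is set beside another. Day 1 replicate 1 stood apart from its group. Over the tested genes, the Pearson correlation of its log2 CPM was 0.883 and 0.919 with the other day 1 libraries and 0.948 with the control, while those other libraries correlated at 0.958. Of the collagen genes, 33 of 44 (75%) were nearer in log2 CPM to the control than to the mean of the other day 1 libraries in that library, against 8723 of 15860 tested genes (55%). In endothelial markers it was not like the control: their sum was 1595 and 1195 CPM at day 7, 95.3, 1092 and 251 CPM at day 1 and 1102 CPM in the control. Markers of a list differed in direction. Vwf, an endothelial glycoprotein, had 65.1, 262 and 72.8 CPM at day 1 and 721 CPM in the control. Kdr, of the same list, had 1.31, 14.9 and 3.93 CPM at day 1 and 0.747 CPM in the control. Scara5, a fibroblast marker, had 16.9, 32.1 and 35.7 CPM at day 1 and 100 CPM in the control. Lum, another fibroblast marker, had 494, 817 and 1141 CPM at day 1 and 365 CPM in the control. Results that rest on this library are given with and without it. It was singled out for its nearness to the control, so leaving it out makes differences from the control easier to call. Calls made without it are therefore not separate support. All 7 smooth muscle markers and all 7 endothelial markers were detected in every library, and the part of the endothelial differences in the collagen values was not tested. In this bulk tissue, fewer cells of a type and less RNA per cell cannot be told apart.

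Collagen transcripts took 3.54% (Wilson 95% interval 3.54 to 3.55%) and 5.43% (5.42 to 5.44%) of all counts in the day 7 libraries. The share was 4.32% (4.31 to 4.33%), 4.85% (4.84 to 4.86%) and 4.38% (4.37 to 4.38%) in the day 1 libraries and 5.29% (5.29 to 5.30%) in the control. The day 7 values lay on either side of every day 1 value and of the control. Intervals cover counting error only and are far narrower than the spread between libraries of a group. Col1a1, Col3a1 and Col1a2 together held 57.1% and 60.8% of collagen counts at day 7, 51.3%, 60.3% and 62.9% at day 1 and 62.4% in the control. Single chains differed between libraries by much larger factors than this total.

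**Figure D1:**
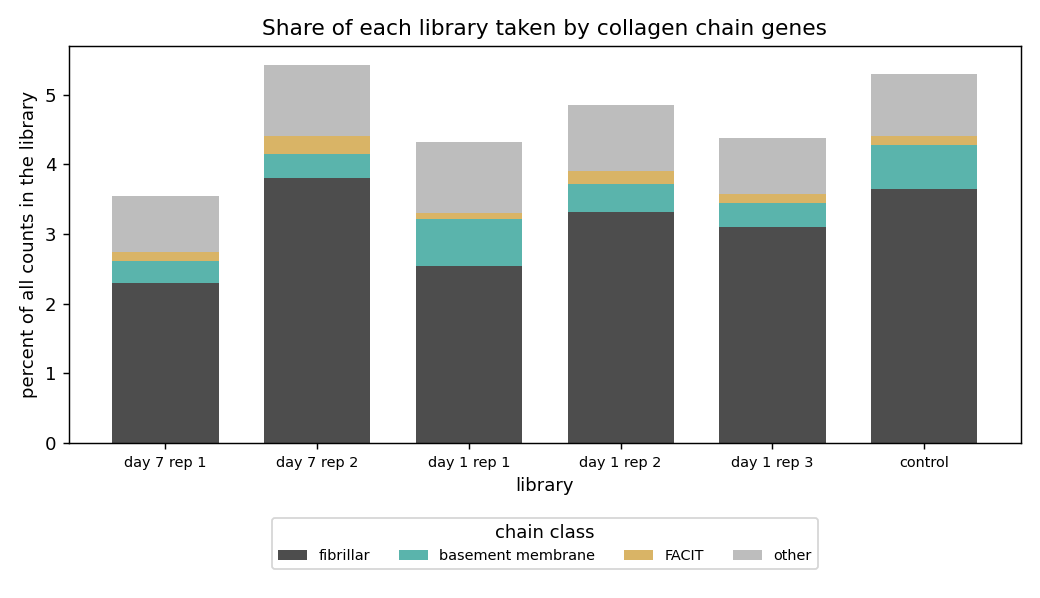
Percent of all counts (vertical axis) taken by the 4 classes of collagen chain genes, stacked, in each library. Fibrillar chains were the largest class in each library, and the total was lowest in day 7 replicate 1 (3.54%) and highest in day 7 replicate 2 (5.43%).

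By length-corrected level, 28 genes had a mean of at least 1 FPKM over the 6 libraries, 21 at least 10, 13 at least 100 and 2 at least 1000. The last were Col3a1 and Col1a1. Of the 16 genes under 1 FPKM, several belong to cartilage or skin in other tissues, such as Col2a1, Col10a1 and Col17a1.

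**Figure D2:**
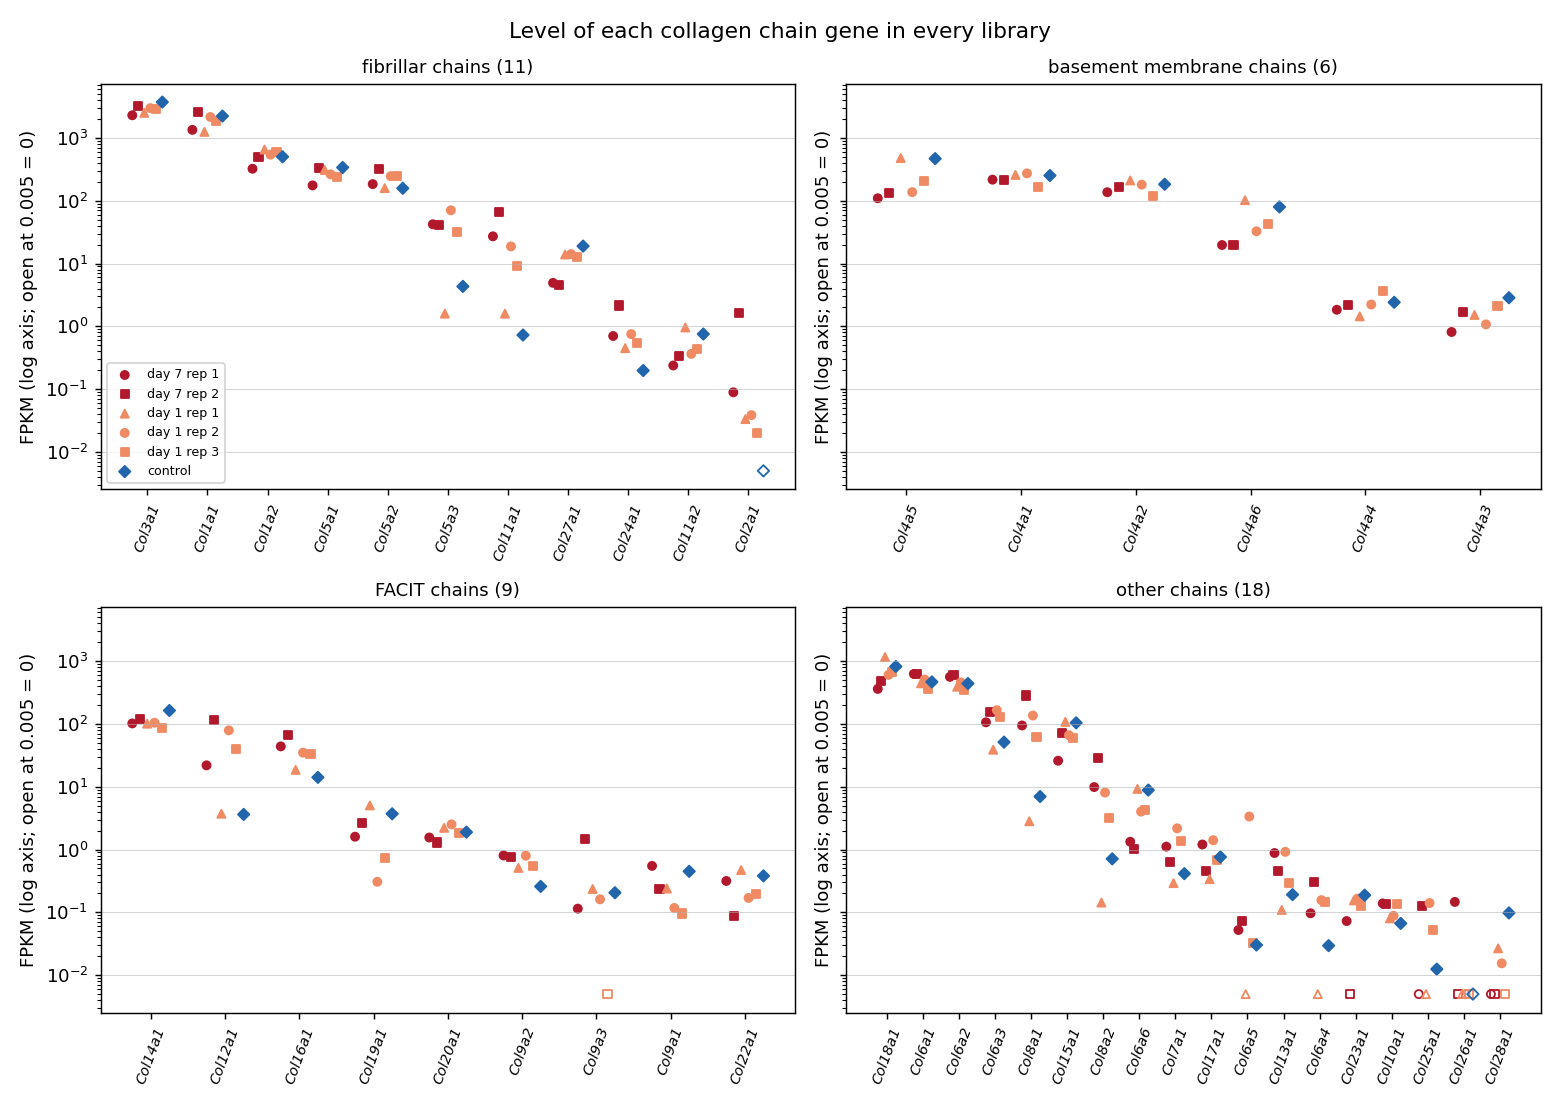
FPKM of every collagen chain gene (log axis) in each of the 6 libraries, by class, with genes along the horizontal axis and open symbols at 0.005 standing for 0. The highest level is 3727 FPKM, for Col3a1 in the control, and chains such as Col8a1, Col8a2, Col12a1 and Col11a1 spread widely between libraries.

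With edgeR's quasi-likelihood test and Benjamini-Hochberg adjustment over all 15860 genes, no collagen gene passed an adjusted p of 0.05 in any comparison, and neither did any other gene (0%). At an unadjusted p under 0.05, day 7 was higher than the control for 4 of the 44 (9.09%, against 6.12% of all genes) and lower for 4 (9.09%, against 3.97%). Day 7 was higher than day 1 for 2 (4.55%, against 4.67% of all genes) and lower for 4 (9.09%, against 5.43%). Day 1 against the control gave 0 in either direction, where 6.13% of all genes were higher and 2.53% lower. The limma-voom test also called 0 genes in each comparison. The DESeq2 Wald test called 6 collagen genes for day 7 against the control (4.92% of all genes were called), 3 for day 7 against day 1 (3.18%) and 1 for day 1 against the control (5.1%). Without day 1 replicate 1, edgeR called 6 collagen genes for day 7 against the control (4.39% of genes tested), 2 for day 1 against the control (5.61%) and 0 for day 7 against day 1 (0%). Both comparisons with the control share its single library, whose own spread is unknown.

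Day 7 values did not overlap the control for 38 of the collagen genes, with 18 higher (42.9% of all tested genes were) and 20 lower (36.2%). Between day 7 and day 1, groups were apart for 6 genes higher at day 7 (17.2% of all genes) and 9 lower (16%). For day 1 against the control, 8 genes were higher in each day 1 library (27.5%) and 9 lower (27.2%). Without day 1 replicate 1 those counts were 16 (40.7%) and 20 (38.8%), and the counts for day 7 against day 1 were 8 (24%) and 11 (22.6%). The count higher at day 7 than day 1 was 12 without day 1 replicate 2 (24.9% of all genes) and 14 without day 7 replicate 1 (26.5%), and the count lower was 15 without day 7 replicate 2 (27.2%). As shares of the 44 genes with all libraries, day 7 against the control gave 40.9% higher and 45.5% lower, day 7 against day 1 gave 13.6% and 20.5%, and day 1 against the control gave 18.2% and 20.5%. The median log2 fold change over the 44 genes was -0.16 for day 7 against the control, where all genes had 0.09, and 21 genes were positive and 23 negative. For day 7 against day 1 it was -0.07, or -0.01 with genes at 0 in a group set to their bound, where all genes had 0.00. For day 1 against the control it was -0.02, where all genes had 0.06.

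**Figure D3:**
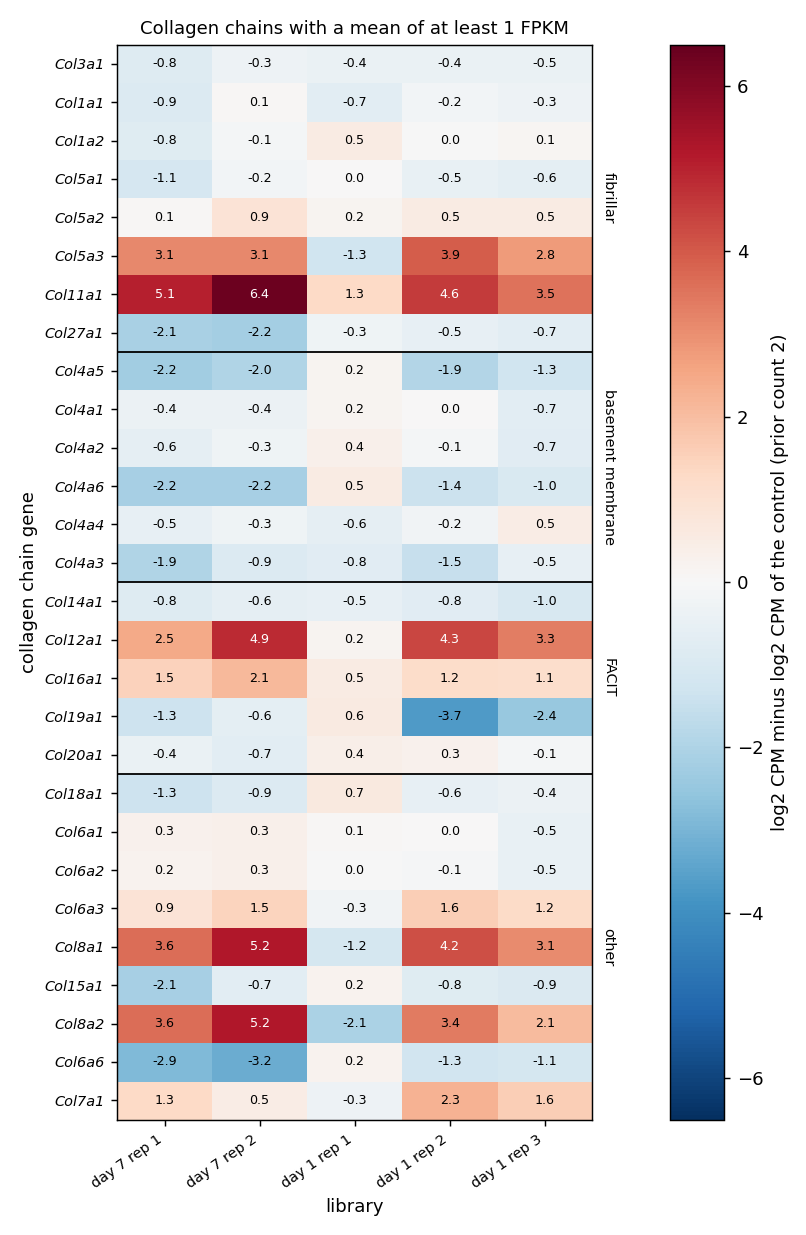
Log2 CPM minus that of the control (colour and printed number, prior count of 2) for the 28 collagen chain genes with a mean of at least 1 FPKM (rows), in the 5 treated libraries (columns). Col8a1, Col12a1, Col5a3 and Col11a1 are red in both day 7 libraries and in day 1 replicates 2 and 3, and Col27a1, Col6a6, Col4a5 and Col4a6 are blue in both day 7 libraries.

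None of the 11 fibrillar chains passed the edgeR test with all libraries, including the genes that form the bulk of arterial fibrils. Col3a1, whose chain forms the homotrimeric type III collagen of distensible tissues, had 10320 and 14847 CPM at day 7, 13830, 13686 and 13464 CPM at day 1 and 18476 CPM in the control. All treated libraries were below the control, and the day 7 values enclosed those of day 1. Day 7 over the control gave a log2 fold change of -0.55 ± 0.58 (SE from the fit; edgeR adjusted p = 0.690). Col1a1, the major chain of type I collagen, had 7383 and 14392 CPM at day 7, 8403, 12081 and 10652 CPM at day 1 and 13526 CPM in the control. All day 1 libraries lay below the control, and the day 7 values lay on either side of it. Col1a2, the other chain of type I collagen, had 1360 and 2136 CPM at day 7, 3372, 2326 and 2552 CPM at day 1 and 2329 CPM in the control. Both day 7 values lay below every other library, with a log2 fold change over day 1 of -0.65 ± 0.39 (edgeR adjusted p = 0.578).

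The balance between these chains varied within groups. The FPKM ratio of Col1a1 to Col1a2 was 4.16 and 5.16 at day 7, 1.91, 3.98 and 3.20 at day 1 and 4.45 in the control. Its log2 ratio was 0.68 higher at day 7 than at day 1 (exact two-sided permutation p = 0.2, where 3 libraries against 2 cannot go below 0.1). Day 1 replicate 1 had the lowest ratio, and both day 7 values exceeded each day 1 value. The ratio of Col3a1 to Col1a1 was 1.71 and 1.26 at day 7, 2.01, 1.38 and 1.54 at day 1 and 1.67 in the control (log2 difference -0.15, exact permutation p = 0.7). For Col5a1 to Col1a1 it was 0.131 and 0.126 at day 7, 0.248, 0.122 and 0.126 at day 1 and 0.152 in the control (log2 difference -0.28, exact permutation p = 1). Without day 1 replicate 1, both of these differences changed sign, to 0.0051 and 0.051. Benjamini-Hochberg adjustment over the 4 ratios tested, counting that of Col4a1 to Col4a2, gave 0.8 for Col1a1 to Col1a2 and 1 for the other ratios by the exact permutation test.

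The less abundant fibrillar chains differed more. Col27a1, a fibrillar chain best known from cartilage, had the smallest p of the 44 genes in both day 7 comparisons. It had 32.8 and 30.2 CPM at day 7, 114, 96.2 and 87.3 CPM at day 1 and 140 CPM in the control. The groups were fully apart, with day 1 replicate 1 between the other day 1 libraries and the control. The log2 fold change of day 7 was -2.15 ± 0.26 over the control (edgeR adjusted p = 0.477) and -1.65 ± 0.22 over day 1 (edgeR adjusted p = 0.402). Over the alternatives tried, the adjusted p against the control ran between 3.89e-08 with DESeq2 and 0.765, and it was 0.0100 with edgeR when day 1 replicate 1 was left out. The fold itself moved little, from -2.21 to -1.81.

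Col11a1, a minor fibrillar chain that sets fibril diameter and is abundant in cartilage, had 189 and 469 CPM at day 7, 13.6, 133 and 65.0 CPM at day 1 and 5.58 CPM in the control. Both day 7 libraries exceeded every day 1 library, and every day 1 library exceeded the control. The log2 fold change over the control was 5.88 ± 1.74 at day 7 (edgeR adjusted p = 0.477, range 0.0004 to 0.765 over the alternatives) and 3.66 ± 1.51 at day 1 (edgeR adjusted p = 0.578, range 0.0361 to 0.810). Without day 1 replicate 1, the day 7 adjusted p was 0.0299 and the day 1 fold was 4.15 ± 0.84 (edgeR adjusted p = 0.0535).

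Col5a3, a type V chain chosen here after its values were seen, had 235 and 234 CPM at day 7, 10.9, 401 and 181 CPM at day 1 and 26.6 CPM in the control. Day 1 replicate 1 was below the control and the other 4 treated libraries were far above it. The day 7 log2 fold change over the control was 3.14 with and without that library. Its SE was 1.96 with the library and 0.57 without. Without that library, Col5a3 rose against the control at both times, by a log2 fold change of 3.14 ± 0.57 at day 7 (edgeR adjusted p = 0.0373) and 3.45 ± 0.58 at day 1 (edgeR adjusted p = 0.0272). With it, the edgeR adjusted p-values were 0.530 and 0.631, and over all alternatives they ran between 0.0373 and 0.782 at day 7 and between 0.0272 and 0.889 at day 1. The partner chains of type V collagen, which begins fibril assembly, ranged less widely. Col5a1 had 1128 and 2124 CPM at day 7, 2434, 1725 and 1568 CPM at day 1 and 2400 CPM in the control. Both day 7 values lay below the control, and the day 1 values lay on either side of it. Col5a2 had 1053 and 1863 CPM at day 7, 1116, 1437 and 1448 CPM at day 1 and 997 CPM in the control, the lowest of the 6 libraries.

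Col2a1, the fibrillar chain of cartilage, was scarce. It had 0.419 and 7.78 CPM at day 7, 0.192, 0.185 and 0.0966 CPM at day 1 and 0 in the control. The day 7 mean was at least 42.1-fold higher than a control floor of 3 counts in the library, and it rested mostly on day 7 replicate 2. Against day 1, the log2 fold change was 4.66 ± 1.26 (edgeR adjusted p = 0.459, range 0.0211 to 1 over the alternatives). The sum of cartilage markers was also highest in day 7 replicate 2, though Sox9 was highest in day 1 replicate 2. At day 1 the sum did not follow Col2a1. The summed CPM of the 6 measured markers was 302 and 1139 at day 7, 9.99, 189 and 161 at day 1 and 9.16 in the control. Acan, the cartilage proteoglycan core protein, had 96.3 and 805 CPM at day 7, 3.20, 158 and 135 CPM at day 1 and 1.56 CPM in the control. Sox9, a chondrocyte transcription factor, had 5.86 and 12.2 CPM at day 7, 2.63, 13.3 and 7.12 CPM at day 1 and 0.195 CPM in the control. Matn1 was at 0 in every library, and Hapln1 was at or near 0, with its highest value, 0.325 CPM, in the control. Col11a1, Col12a1 and Col8a1 were also higher in day 7 replicate 2 than in replicate 1, and the part of these markers in the result was not tested.

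The remaining fibrillar chains, Col24a1 and Col11a2, were low, at 1.10 to 10.9 CPM and 1.76 to 8.68 CPM over the 6 libraries. Col24a1 was highest in day 7 replicate 2 and lowest in the control.

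The 6 type IV chains are the network formers of basement membranes. Their genes lie as neighbouring pairs, each pair transcribed away from a shared region. The promoter windows of both well expressed pairs are shown because the levels of the genes in each of these pairs ran parallel across libraries. The levels of the low pair, Col4a3 and Col4a4, did so less closely. In the RefSeq annotation of GRCr8, the start sites of Col4a1 and Col4a2 lie 77 bases apart and those of Col4a5 and Col4a6 lie 1415 bases apart. The window of Col4a1, 250 bases before to 50 after its start (chr16:84885347-84885646, plus strand), and that of Col4a2 (chr16:84885471-84885770, minus strand) share 176 bases, shown in capitals. The windows of Col4a5 (chrX:109907109-109907408, plus strand) and Col4a6 (chrX:109905895-109906194, minus strand) do not overlap, and capitals mark the motif GGGCGG read on either strand. Each sequence runs 5′ to 3′ on its own strand.
Col4a1: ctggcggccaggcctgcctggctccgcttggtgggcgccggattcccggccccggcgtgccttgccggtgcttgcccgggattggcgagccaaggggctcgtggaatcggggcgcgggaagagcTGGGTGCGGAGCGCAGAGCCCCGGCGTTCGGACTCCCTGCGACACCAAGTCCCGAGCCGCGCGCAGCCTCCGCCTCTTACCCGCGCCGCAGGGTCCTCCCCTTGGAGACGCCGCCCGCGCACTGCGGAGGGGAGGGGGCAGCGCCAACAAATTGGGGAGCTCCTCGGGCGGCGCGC
Col4a2: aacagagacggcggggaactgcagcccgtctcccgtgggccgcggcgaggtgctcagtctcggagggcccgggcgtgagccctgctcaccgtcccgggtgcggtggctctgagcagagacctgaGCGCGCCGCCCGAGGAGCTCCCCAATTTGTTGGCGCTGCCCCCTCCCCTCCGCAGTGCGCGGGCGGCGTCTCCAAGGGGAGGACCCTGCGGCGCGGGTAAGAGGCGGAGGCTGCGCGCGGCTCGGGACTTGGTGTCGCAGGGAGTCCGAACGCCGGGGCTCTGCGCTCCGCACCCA
Col4a5: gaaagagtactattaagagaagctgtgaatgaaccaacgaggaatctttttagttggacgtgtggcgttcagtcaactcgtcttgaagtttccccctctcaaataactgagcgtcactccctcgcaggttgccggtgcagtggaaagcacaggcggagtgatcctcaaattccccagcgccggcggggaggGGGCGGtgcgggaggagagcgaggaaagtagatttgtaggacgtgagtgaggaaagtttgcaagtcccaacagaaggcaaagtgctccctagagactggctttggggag
Col4a6: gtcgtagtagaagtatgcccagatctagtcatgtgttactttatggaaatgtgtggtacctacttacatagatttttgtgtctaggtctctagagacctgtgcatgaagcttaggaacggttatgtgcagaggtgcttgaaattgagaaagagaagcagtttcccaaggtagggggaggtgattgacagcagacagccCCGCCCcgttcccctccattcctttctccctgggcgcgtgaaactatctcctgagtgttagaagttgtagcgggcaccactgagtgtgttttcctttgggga
Windows of this kind were found for 35 of the 44 collagen genes. Read on both strands, GGGCGG was in 19 of the 35 (54.3%), against 34.9% of all 27457 windows. CCAAT was in 11 (31.4%, against 37.7%) and TGANTCA in 1 (2.86%, against 7.33%). These counts describe letters in the windows and were not linked to the levels.

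The main endothelial and smooth muscle type IV chains, encoded by Col4a1 and Col4a2, differed less between groups than the X-linked pair. Col4a1 had 1344 and 1346 CPM at day 7, 1960, 1727 and 1070 CPM at day 1 and 1725 CPM in the control, with the day 7 pair almost equal and inside the day 1 range. Its log2 fold change over the control was -0.36 ± 0.49 at day 7 (edgeR adjusted p = 0.763). Col4a2 had 833 and 1017 CPM at day 7, 1572, 1122 and 737 CPM at day 1 and 1231 CPM in the control. The FPKM ratio of Col4a1 to Col4a2 was 1.59 and 1.301 at day 7, 1.23, 1.51 and 1.43 at day 1 and 1.38 in the control (log2 difference 0.05, exact permutation p = 0.8, -0.03 without day 1 replicate 1). Across the 6 libraries, the pair's log2 CPM had a Pearson r of 0.946, as a description of libraries that share a depth scaling.

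The second pair, encoded on the X chromosome, was lower at day 7. Col4a5, a chain of smooth muscle basement membranes, had 677 and 815 CPM at day 7, 3620, 865 and 1293 CPM at day 1 and 3192 CPM in the control. The day 7 values lay below every day 1 value, and day 1 replicate 1 alone sat above the control. Its log2 fold change was -2.10 ± 0.85 over the control (edgeR adjusted p = 0.477, range 0.0390 to 0.765 over the alternatives) and -1.37 ± 0.69 over day 1 (edgeR adjusted p = 0.534). Col4a6, which pairs with Col4a5 in a heterotrimer, had 99.4 and 99.9 CPM at day 7, 631, 168 and 221 CPM at day 1 and 444 CPM in the control. Its log2 fold change was -2.16 ± 0.78 over the control (edgeR adjusted p = 0.477) and -1.77 ± 0.65 over day 1 (edgeR adjusted p = 0.484). Without day 1 replicate 1, both genes fell at day 7 against the control, Col4a5 by a log2 fold change of -2.10 ± 0.39 (edgeR adjusted p = 0.0390) and Col4a6 by -2.16 ± 0.30 (edgeR adjusted p = 0.0155, range 0.0155 to 0.765 over the alternatives).

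The proportion within the pair varied less than its level. The FPKM ratio of Col4a5 to Col4a6 was 5.56 and 6.66 at day 7, 4.68, 4.20 and 4.77 at day 1 and 5.87 in the control, so both day 7 values exceeded every day 1 value (log2 difference 0.42, not tested). Their log2 CPM had a Pearson r of 0.975 over the 6 libraries. The ratio of Col4a5 to Col4a1 was 0.505 and 0.608 at day 7, 1.85, 0.503 and 1.21 at day 1 and 1.86 in the control, so day 1 replicate 1 was at the control's value. Summed smooth muscle markers were 17061 and 16744 CPM at day 7, 27871, 6385 and 9628 CPM at day 1 and 27042 CPM in the control. Not every marker of the list followed the sum. Myocd had 26.2 and 76.3 CPM at day 7, 233, 32.6 and 84.0 CPM at day 1 and 149 CPM in the control. Each other marker of the list was higher in both day 7 libraries than in day 1 replicates 2 and 3, as the sum was. Acta2, for example, had 4943 and 5758 CPM at day 7, 12644, 2613 and 2909 CPM at day 1 and 9324 CPM in the control. The part of the markers in these results was not tested.

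Col4a3 and Col4a4, chains of kidney and lung basement membranes, were low. Col4a3 had 4.07 and 8.44 CPM at day 7, 9.32, 5.49 and 10.8 CPM at day 1 and 15.7 CPM in the control, and Col4a4 ranged from 1.92 to 4.03 CPM over the 6 libraries. Their start sites lie 413 bases apart and their promoter windows share 88 bases. Their log2 CPM had a Pearson r of 0.537 over the 6 libraries. All 6 type IV genes had a negative log2 fold change at day 7 against both day 1 and the control, with medians of -0.40 and -0.87. Those signs held under each normalisation tried and without day 1 replicate 1. Without that library, however, the log2 fold change over day 1 was only -0.056 ± 0.34 for Col4a1 and -0.0067 ± 0.33 for Col4a2. At day 1 against the control the median was -0.25 and all 6 were negative, but Col4a4 turned positive with library totals alone and without day 1 replicate 1.

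**Figure D4:**
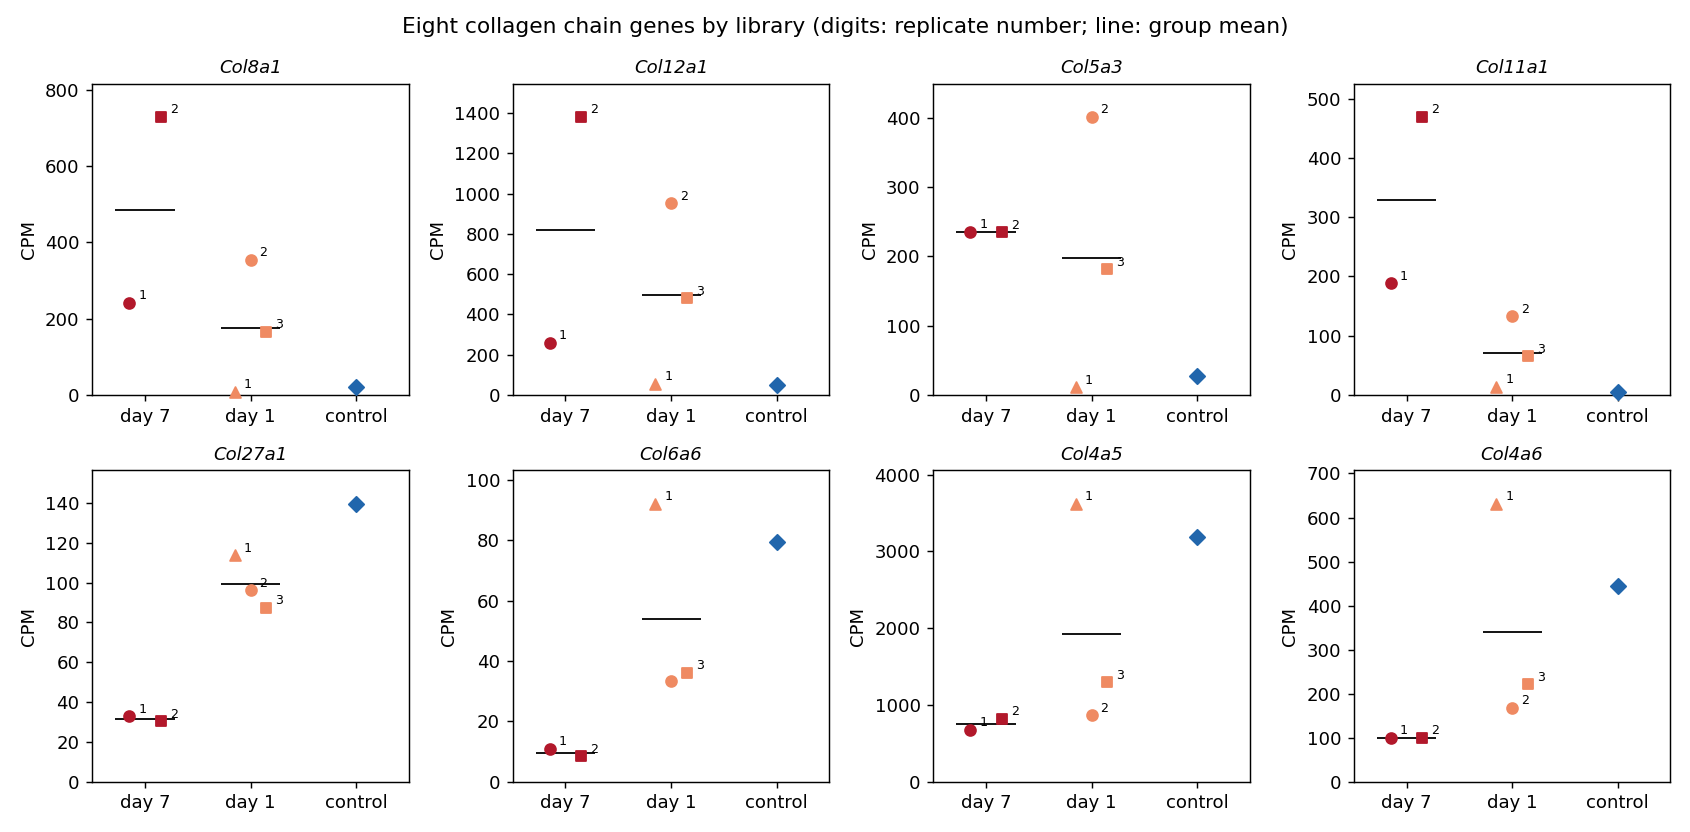
CPM of 8 collagen chain genes in every library, with day 7, day 1 and the control along the horizontal axis, replicate numbers beside the points and lines at the group means. Col8a1, Col12a1, Col5a3 and Col11a1 are low in day 1 replicate 1 and the control, and Col27a1, Col6a6, Col4a5 and Col4a6 are lowest at day 7.

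Among FACIT chains, Col12a1 and Col16a1 were higher in both day 7 libraries than in the control, and Col14a1 was lower. Col12a1, a stress-associated chain at fibril surfaces, had 259 and 1381 CPM at day 7, 53.8, 953 and 480 CPM at day 1 and 47.2 CPM in the control. The library day 1 replicate 1 was close to the control and the other 4 treated libraries were above it by a wide margin. The log2 fold change over the control was 4.12 ± 2.07 at day 7 (edgeR adjusted p = 0.487) and 3.39 ± 1.94 at day 1 (edgeR adjusted p = 0.608). Col16a1, a fibril-associated chain that binds integrins, had 221 and 335 CPM at day 7, 115, 180 and 172 CPM at day 1 and 78.5 CPM in the control. Every day 7 library exceeded every day 1 library, and every day 1 library exceeded the control. Its log2 fold change was 1.82 ± 0.46 over the control at day 7 (edgeR adjusted p = 0.477, range 0.0149 to 0.765) and 0.84 ± 0.31 over day 1 (edgeR adjusted p = 0.484).

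Col14a1, a FACIT chain of fibroblast-rich tissue, ran the other way. It had 612 and 719 CPM at day 7, 744, 640 and 533 CPM at day 1 and 1083 CPM in the control, above every treated library. The log2 fold change over the control was -0.76 ± 0.35 at day 1 (edgeR adjusted p = 0.587) and -0.70 ± 0.37 at day 7 (edgeR adjusted p = 0.492). Col19a1, chosen after its values were seen, had 15.9 and 26.2 CPM at day 7, 61.5, 3.11 and 7.41 CPM at day 1 and 40.7 CPM in the control. With all libraries, its log2 fold change at day 1 over the control was -0.76 ± 1.51 (edgeR adjusted p = 0.877). Without day 1 replicate 1, the day 1 library above the control, it was -2.95 ± 0.56 (edgeR adjusted p = 0.0396, range 0.0396 to 0.998 over the alternatives). Col9a2, a cartilage FACIT chain, had 2.47 and 2.37 CPM at day 7, 1.92, 2.50 and 1.71 CPM at day 1 and 0.877 CPM in the control. Col20a1 was at 8.75 to 18.2 CPM, and Col9a1, Col9a3 and Col22a1 stayed at or under 3.58 CPM in every library.

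The other class held genes of high level and stable proportion as well as highly variable ones. Col6a1 and Col6a2 encode chains of the beaded filaments around cells. Col6a1 had 2385 and 2438 CPM at day 7, 2074, 1982 and 1415 CPM at day 1 and 1964 CPM in the control. Col6a2 had 2055 and 2215 CPM at day 7, 1753, 1709 and 1289 CPM at day 1 and 1775 CPM in the control. For both genes the day 7 libraries exceeded every day 1 library. Their FPKM ratio was 1.11 and 1.05 at day 7, 1.13, 1.11 and 1.05 at day 1 and 1.06 in the control, the narrowest range of the ratios examined. Col6a3, which supplies the long chain of those filaments, did not keep that proportion. It had 1020 and 1491 CPM at day 7, 458, 1623 and 1282 CPM at day 1 and 545 CPM in the control. Its FPKM ratio to Col6a1 was 0.170 and 0.243 at day 7, 0.0875, 0.325 and 0.359 at day 1 and 0.110 in the control, so day 1 replicate 1 and the control were lowest. Both Col6a3 and this ratio were chosen after the values were seen.

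Col6a6, a further chain of the family, had 10.8 and 8.38 CPM at day 7, 92.1, 33.3 and 36.1 CPM at day 1 and 79.4 CPM in the control. Day 7 lay below every other library. The fitted log2 fold change was -3.05 ± 0.66 over the control (edgeR adjusted p = 0.477, range 0.00506 to 0.765) and -2.49 ± 0.56 over day 1 (edgeR adjusted p = 0.423, range 0.00142 to 1). Without day 1 replicate 1, Col6a6 fell at day 7 against the control, by -3.05 ± 0.30 (edgeR adjusted p = 0.00695). Col6a5 had 30.1 CPM in day 1 replicate 2 and at most 0.638 CPM in any other library.

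Col8a1 and Col8a2, also chosen after their values were seen, encode the short-chain collagen of subendothelial and smooth muscle matrix. Col8a1 had 241 and 729 CPM at day 7, 8.81, 354 and 165 CPM at day 1 and 19.6 CPM in the control. Its log2 fold change over the control was 4.63 ± 2.30 at day 7 (edgeR adjusted p = 0.485). Col8a2 had 39.7 and 117 CPM at day 7, 0.704, 33.1 and 13.3 CPM at day 1 and 3.15 CPM in the control. For both, day 1 replicate 1 was below the control, the other 4 treated libraries were above it, and day 7 replicate 2 was the highest. Macrophage markers summed to 5746 and 4691 CPM at day 7, 40.1, 5524 and 2352 CPM at day 1 and 50.6 CPM in the control. Lyz2 made up most of this sum in every treated library, and other members differed. C1qa had 199 and 114 CPM at day 7, 1.63, 70.3 and 20.4 CPM at day 1 and 6.17 CPM in the control. Cd68 had 227 and 128 CPM at day 7, 1.47, 262 and 142 CPM at day 1 and 1.10 CPM in the control. Fibroblast markers summed to 3454 and 3120 CPM at day 7, 1002, 1846 and 2109 CPM at day 1 and 1284 CPM in the control. The part of these markers in the Col8a1, Col8a2, Col5a3 and Col12a1 values was not tested.

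Col18a1, a basement membrane collagen whose end fragment is endostatin, had 1708 and 2316 CPM at day 7, 6744, 2918 and 3296 CPM at day 1 and 4291 CPM in the control. The day 7 libraries lay below every other library, with a log2 fold change of -1.10 ± 0.52 over day 1 (edgeR adjusted p = 0.522) and -1.09 ± 0.65 over the control (edgeR adjusted p = 0.521). Col15a1, a related chain chosen after its values were seen, had 127 and 351 CPM at day 7, 649, 331 and 298 CPM at day 1 and 563 CPM in the control. The remaining other chains ranged from 0 to 19.3 CPM over the 6 libraries, the highest being Col7a1, the anchoring fibril chain, in day 1 replicate 2. Col26a1 had 0.379 CPM in day 7 replicate 1 and 0 elsewhere, and Col28a1 was at 0 in both day 7 libraries.

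Over the 6 libraries, the genes most like Col1a1 in log2 CPM were Col3a1 (Pearson r 0.788), Col25a1 (0.727) and Col5a1 (0.538). Those most like Col4a1 were Col4a2 (0.946), Col28a1 (0.747) and Col20a1 (0.677). Col25a1 and Col28a1 had only 26 and 19 counts in total, so their correlations rest on very few reads.

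Enzymes and chaperones that make collagen were followed as a list of 26, of which 25 were tested. None passed in any comparison with edgeR. Day 7 against day 1 gave 13 positive and 12 negative log2 fold changes (median 0.04, all genes -0.001). Day 7 against the control gave 12 and 13 (median -0.02, all genes 0.09), and day 1 against the control 15 and 10 (median 0.08, all genes 0.06). Adamts3, a procollagen peptidase, had 1.56 and 2.89 CPM at day 7, 6.12, 16.4 and 11.1 CPM at day 1 and 4.71 CPM in the control. Its log2 fold change of day 7 over day 1 was -2.34 ± 0.58 (edgeR adjusted p = 0.429). Crtap, a member of the prolyl 3-hydroxylation complex, had 0.579 and 0.456 CPM at day 7, 1.99, 3.27 and 0.869 CPM at day 1 and 5.55 CPM in the control. Bmp1, which removes the C-propeptide of fibrillar procollagens, had 157 and 158 CPM at day 7, 222, 224 and 185 CPM at day 1 and 261 CPM in the control, the highest library. Plod2, a lysyl hydroxylase, had 392 and 707 CPM at day 7, 509, 370 and 472 CPM at day 1 and 237 CPM in the control, the lowest library.

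Collagen receptors and proteases formed a list of 14, of which 13 were tested and 0 passed with edgeR in each comparison. The median log2 fold change was -0.12 for day 7 against day 1 (6 positive and 7 negative), where all genes had -0.001. It was 0.97 for day 7 against the control (10 and 3), where all genes had 0.09. For day 1 against the control it was 0.80 (9 and 4), where all genes had 0.06. The positive genes against the control included Mmp13, at 0 there, and Itga2, at 0.682 CPM there. Mmp2, a gelatinase, had 2177 and 2287 CPM at day 7, 1192, 1093 and 1040 CPM at day 1 and 1135 CPM in the control, with day 7 above every other library (log2 fold change over day 1 of 1.01 ± 0.28, edgeR adjusted p = 0.459). Itga11, a fibroblast collagen receptor subunit, had 89.4 and 195 CPM at day 7, 43.7, 55.9 and 59.9 CPM at day 1 and 36.4 CPM in the control. Mmp8, the neutrophil collagenase, had 0.239 and 0.182 CPM at day 7, 3.71, 2.84 and 10.05 CPM at day 1 and 0.942 CPM in the control. Ddr2, a collagen-binding receptor kinase, had 233 and 265 CPM at day 7, 474, 270 and 478 CPM at day 1 and 531 CPM in the control.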

How the data were processed

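RNA of 6 libraries was analysed. The read counts per gene symbol were deposited by the authors, and so were the authors' FPKM values, which divide the counts by gene length and library size. Per the submitters' processing notes, StringTie 1.3.1, HISAT2, Bowtie2 2.2.8 and fastp 0.18.0 were used. Which genome build they used is not given in the sources used here, nor is the annotation or the role of each tool. Group membership came from the sample labels.

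Genes passing filterByExpr (15860) were normalised by the trimmed mean of M-values and fitted with the edgeR 4.0.16 quasi-likelihood test, robust dispersions, in R 4.3.3, as 1 model with 3 group means. Its 3 residual degrees of freedom came from the treated libraries, and the same spread was taken to hold for the control. Adjustment was by Benjamini-Hochberg over all genes tested, with a threshold of 0.05. CPM uses the same factors. A floor of 3 counts per library (0.0598 to 0.0974 CPM) stands for a gene at 0, and like the intervals it covers counting error only.

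Promoter windows came from the RefSeq table of GRCr8. Genes were named by rule: the 3 with the highest mean FPKM in each class and the 5 with the smallest p in each comparison. Most others are said to have been chosen after their values were seen, as were the promoter motifs. Col5a1, Col5a2 and Col4a3 were also outside this rule and are given beside other chains of their type. Single cell type markers were outside it too and are shown as examples. The collagen genes and gene lists were chosen with earlier results of these data known. Alternatives tried were other normalisation factors, other filters, DESeq2 1.42.0, limma-voom and limma-trend (limma 3.58.1) on log2 FPKM with 1 or 0.1 added, non-robust dispersions, each treated library left out, the treated libraries alone, and a replicate block.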

Additional observations from a re-analysis of the deposited data

Results flagged for a closer look

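Among collagen genes and the 2 pathway lists, 4 genes had every day 7 library on one side of the control and every day 1 library on the other, which is 4.88% of the 82 tested and no larger a share than among all tested genes (5.61%). For Col6a2, day 7 was above the control and day 1 below it, with a log2 fold change of day 7 over day 1 of 0.43. Mrc2, an endocytic collagen receptor, had 370 and 414 CPM at day 7, 281, 255 and 351 CPM at day 1 and 365 CPM in the control, with a log2 fold change of 0.41. For Adamts3, at -2.34, and Mmp8, at -4.68, day 7 was below the control and day 1 above it. The edgeR test of day 7 against day 1, which is the test of this difference, passed for none of them. DESeq2 called Mmp8 (adjusted p = 3.19e-06, range 3.19e-06 to 1 over the alternatives) and Adamts3 (adjusted p = 0.00753, range 0.00753 to 1). The single control sets the dividing line.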

How the results depend on the processing

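Numbers of genes called depended on the test and on day 1 replicate 1. With edgeR on all 6 libraries, 0 of 44 collagen, 0 of 25 biosynthesis and 0 of 13 receptor or turnover genes were called (0% of all genes). In the same order, DESeq2 called 3, 1 and 2 for day 7 against day 1, where 3.18% of all genes were called. It called 6, 1 and 3 for day 7 against the control (4.92% of all genes). For day 1 against the control it called 1 collagen gene (5.1% of all genes). Leaving out each day 1 library in turn gave 0 to 6, 0 to 1 and 0 to 1 edgeR calls for day 7 against the control. For day 1 against the control it gave 0 to 2 in each list. The upper values came without day 1 replicate 1, where 4.39% and 5.61% of all genes tested were called in these comparisons. The log2 ratio differences of day 7 over day 1 ranged from -0.37 to 0.071 for Col3a1 to Col1a1 (0.071 without day 7 replicate 2, 0.0051 without day 1 replicate 1), 0.38 to 0.91 for Col1a1 to Col1a2, -0.088 to 0.20 for Col4a1 to Col4a2 (-0.088 without day 7 replicate 1, -0.032 without day 1 replicate 1) and -0.46 to 0.051 for Col5a1 to Col1a1 (0.051 without day 1 replicate 1). The log2 fold change of Col1a1 ranged from -0.87 to 0.090 against the control (0.090 without day 7 replicate 1) and from -0.49 to 0.47 against day 1 (-0.062 without day 1 replicate 1, -0.49 without day 7 replicate 2). The causes were not tested. Among alternative values of 41 named folds, 617 kept their direction and side of the threshold, 19 newly passed it and 3 reversed. Library totals alone shifted the median of all genes by 0.14 for day 7 against the control and 0.11 against day 1. Libraries with the same number in their sample titles did not deviate together (r -0.05 for both pairs). The day 7 deviations mirror each other, so these r values are not independent. The submitters' column names number the day 7 libraries differently, and pairing by them was not tried. With the replicate block by title number, 0 genes of each list were called and the Col1a1 to Col1a2 log2 difference was 0.75. The control has no replicate and day 7 only 2, and both numbers limit precision.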

Other observations

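Biosynthesis and turnover genes outside the naming rule, chosen after their values were seen, included P4ha3, a prolyl 4-hydroxylase subunit. It had 24.8 and 49.0 CPM at day 7, 1.83, 34.8 and 19.5 CPM at day 1 and 2.86 CPM in the control, so day 1 replicate 1 was the lowest library. Without that library it rose against the control at day 7 (log2 fold change 3.69 ± 0.66, edgeR adjusted p = 0.0359) and at day 1 (3.25 ± 0.64, edgeR adjusted p = 0.0441). With all libraries, the edgeR adjusted p-values were 0.479 and 0.617. Comp, a cartilage and tendon matrix protein that binds collagen, had 198 and 310 CPM at day 7, 3.91, 15.6 and 16.8 CPM at day 1 and 6.85 CPM in the control. Mmp13, a collagenase, had 0.878 and 0.668 CPM at day 7, 0, 4.22 and 5.51 CPM at day 1 and 0 in the control.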
